A study of Mus musculus with 13 samples.

Results

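The 10 genes described here, Csf1, Csf2, Csf3, Ccl2, Tnf, Cxcl1, Cxcl2, Cxcl5, Ccl20 and Cxcl14, encode secreted factors that recruit or sustain myeloid cells. They were chosen by symbol from the 19934 genes that the array's annotation names, and each was read by its 1 probe set. All 10 were found, 7 entered the test across genes, and 3 (Csf2, Cxcl2 and Cxcl5) lay below its filter on low values.

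Expression was measured on a mouse whole-transcript gene array in 13 samples of epithelium that dispase treatment had freed from the tissue beneath it. Every animal carried L2-Cre, a Cre recombinase whose viral promoter is active in squamous epithelium of the upper digestive tract. The strain was a mix of C57Bl/6 and 129, and no age is stated in the labels. The groups were esophagus of 4 Cre/p120 flox/flox animals (193, 307, 313 and 335) and esophagus of 3 Cre/p120 +/+ animals (214, 216 and 217), then forestomach masses of 3 Cre/p120 flox/flox animals (412, 426 and 510) and forestomach of the same 3 Cre/p120 +/+ animals. The flox/flox animals carry floxed alleles of Ctnnd1, the gene of p120-catenin, which holds cadherins at the cell surface. The +/+ animals, which carry Cre without floxed alleles, are called controls below. All flox/flox samples of the forestomach were masses, so genotype and the formation of a mass cannot be told apart there. The controls gave both tissues, and no animal gave both a flox/flox esophagus and a mass. The comparisons ask whether loss of p120-catenin in squamous epithelium goes with expression of factors that attract inflammatory cells.

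Many ligands of these families, though not Cxcl14, are near silent in resting epithelium. They are transcribed after cytokine or microbial signals, largely through the transcription factor NF-kappaB. Many of their mRNAs are short-lived, since proteins such as tristetraprolin (Zfp36) bind AU-rich stretches in them and speed their decay. Once secreted, the colony-stimulating factors keep macrophages and granulocytes alive and dividing, while the chemokines draw monocytes, neutrophils or lymphocytes through receptors on those cells.

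Promoter sequence from RefSeq (build GRCm38.p6, 250 bases before to 50 after each gene's start) was at hand for 7 of the 10 genes, namely Csf1, Csf2, Tnf, Cxcl1, Cxcl2, Ccl20 and Cxcl14. Both strands were searched for GGG, any 2 bases and TTTCC, a form of the site bound by NF-kappaB. The 10 letters were present for 4 of the 7 genes and absent from the windows of 3. They were present for 1.895% of the 27025 genes with a promoter sequence, or in 1.63% of the 32851 promoters. The motif was chosen with the matches known, so the count is a description, and a match is not a site shown to be used. All 4 stretches that hold a match are shown. Each is given 5′ to 3′ on the gene's strand with 30 bases on either side, and capitals mark the matches.
Csf1, chr3:107760584-107760653, minus strand: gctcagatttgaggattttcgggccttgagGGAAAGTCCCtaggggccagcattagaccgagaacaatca
Cxcl1, chr5:90891126-90891213, plus strand: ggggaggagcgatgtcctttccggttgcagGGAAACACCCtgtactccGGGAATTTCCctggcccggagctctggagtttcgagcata
Cxcl2, chr5:90903772-90903860, plus strand: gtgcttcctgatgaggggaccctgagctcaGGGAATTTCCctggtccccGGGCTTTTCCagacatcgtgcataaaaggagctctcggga
Ccl20, chr1:83116656-83116725, plus strand: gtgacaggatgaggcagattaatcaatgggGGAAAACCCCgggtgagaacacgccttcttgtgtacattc
The neighbouring chemokine genes Cxcl1 and Cxcl2 each held 2 matches that do not overlap, and Csf1 and Ccl20 held 1 each. The probe sets measure transcripts, so none of the array values below bears on binding at these letters.

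Levels are log2 of the deposited intensities. Background on an array was taken as the 95th percentile of 1207 olfactory and vomeronasal receptor probe sets, which lay at 5.34 to 5.83 on the 13 arrays. Of all 19934 genes, 59.4% were above it on every array and 24.5% on none. Among the 10 ligand genes, Csf1, Cxcl1 and Ccl20 were above it on all 13 arrays and Cxcl14 on 12. Ccl2 and Tnf were above it on 3 arrays each and Cxcl5 on 1. Csf2, Csf3 and Cxcl2 were above it on none. A level at background does not show that a transcript is absent, only that this array could not tell it from probe sets of genes that squamous epithelium is not known to use.

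**Figure D1:**
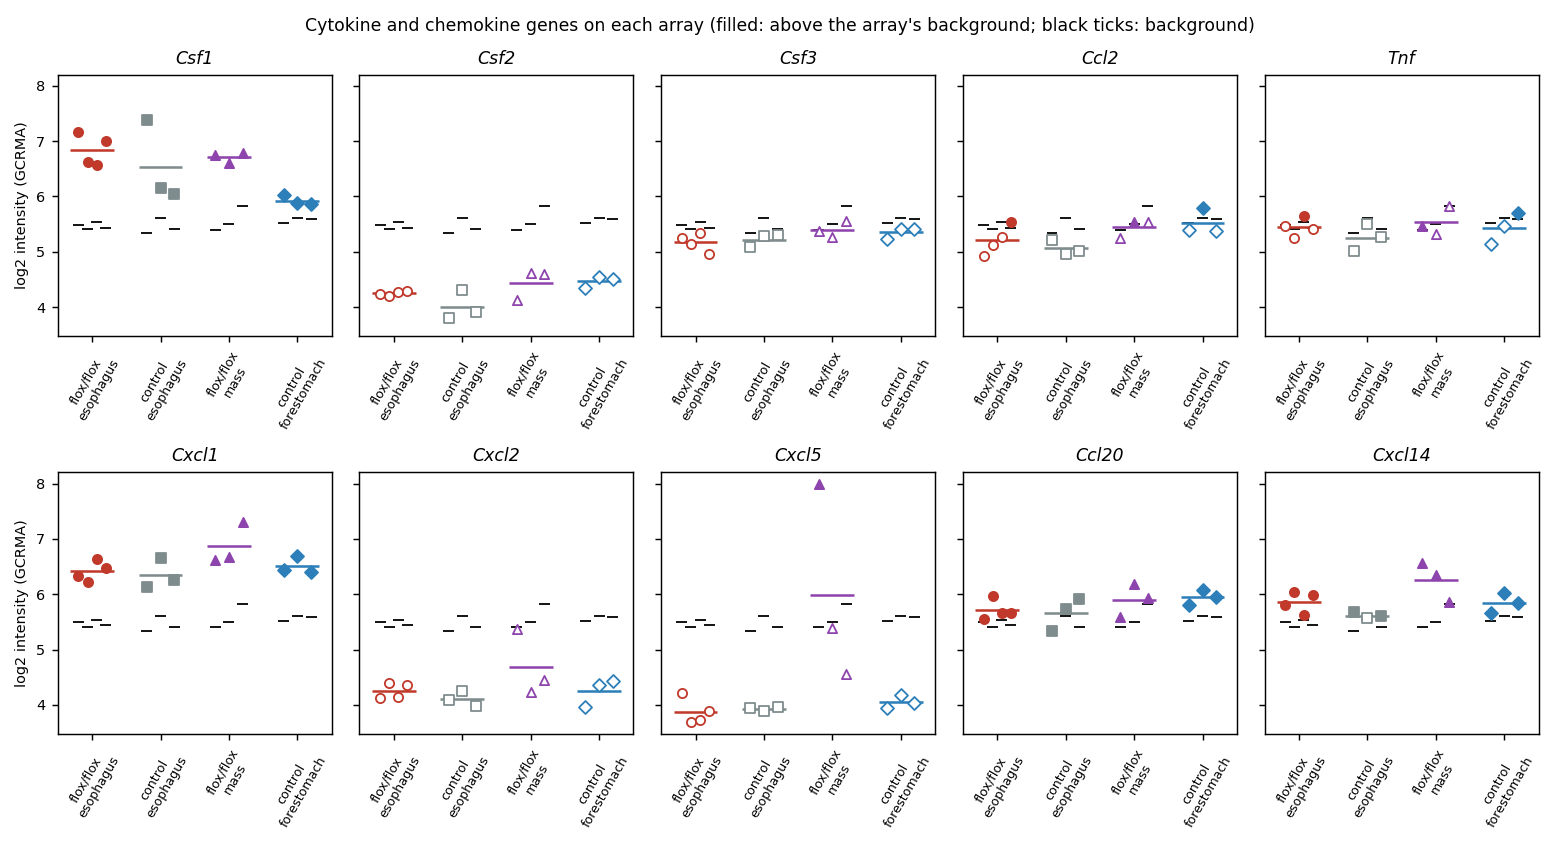
Log2 intensity of the 10 ligand genes on each of the 13 arrays, by group, with a coloured line at each group mean. Symbols are filled where the level is above that array's background and open where it is not, and black ticks mark the background. Cxcl5 in mass 412, at 7.99, stands apart from its other values, and Csf1 in the 3 masses (6.60 to 6.79) lies above Csf1 in the 3 control forestomachs (5.87 to 6.03).

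No ligand gene passed the test between flox/flox and control samples in either tissue. In the masses, 0 of 7 were called at a limma adjusted p under 0.05, where 1700 of the 15875 genes tested were called, or 10.7%. In the esophagus, 0 of 7 were called where 2 genes were, or 0.0126%. At an unadjusted p under 0.05 the counts were 2 of 7 in the masses (Csf1 and Cxcl14; 24.8% of all genes) and 0 of 7 in the esophagus (6.98% of all genes). In the masses 5 of the 7 differences were above 0, with a median of 0.10 against 0.01 over all genes tested. In the esophagus 6 of the 7 were above 0, with a median of 0.15 against 0.01.

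**Figure D2:**
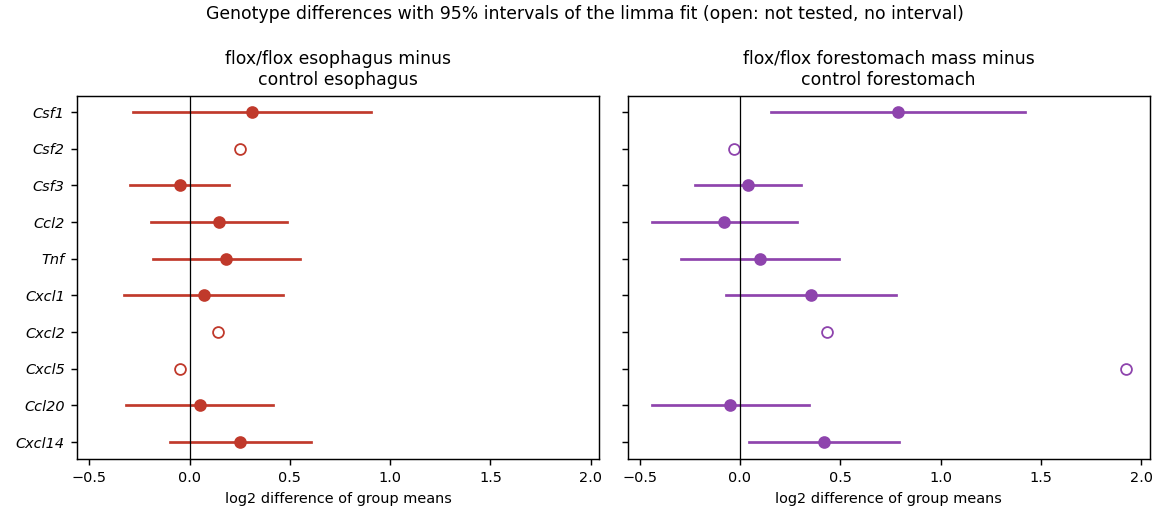
Log2 difference of group means for the 10 ligand genes, flox/flox minus control, in the esophagus (left) and in the forestomach (right), with 95% intervals of the limma fit. Open circles are the 3 genes below the filter, which have no interval. The intervals of Csf1 and Cxcl14 in the masses exclude 0 before adjustment, and neither gene passed after it.

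Csf1, the colony-stimulating factor that macrophages need to survive and proliferate, averaged 1.73-fold higher in the masses without passing the adjusted test. Its levels were 6.76, 6.60 and 6.79 in masses 412, 426 and 510, against 6.03, 5.88 and 5.87 in control forestomachs 214, 216 and 217. All 3 masses lay above all 3 controls, as did 10.3% of all genes tested. The log2 difference was 0.79 (SE 0.29, 95% interval 0.16 to 1.42), with a limma adjusted p of 0.110. The spread of the Csf1 esophagus arrays enters that SE. With the forestomach arrays alone, the SE of Csf1 was 0.12 and the adjusted p 0.0319. Without control esophagus 214 they were 0.16 and 0.0119, with the same difference.

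In the esophagus, Csf1 was at 7.17, 6.62, 6.57 and 7.0 in flox/flox animals 193, 307, 313 and 335, against 7.38, 6.16 and 6.05 in controls 214, 216 and 217. The flox/flox arrays lay above controls 216 and 217 and below control 214, so the groups overlapped. The log2 difference was 0.31 (SE 0.27, 95% interval -0.28 to 0.90; limma adjusted p = 0.934). Arrays 307, 335 and control 214 also had the highest esophageal levels of skeletal muscle and fibroblast genes. Without these 3 arrays, an alternative chosen after seeing the data, the Csf1 difference was 0.77 (SE 0.19) with a limma adjusted p of 0.407. The genotype difference of Csf1 in the masses minus that in the esophagus was 0.48 (SE 0.40, 95% interval -0.39 to 1.34; limma adjusted p = 0.778), and no ligand gene was called for this difference, where 22 genes or 0.139% were. At an unadjusted p under 0.05 that count was 0 of 7, against 10.5% of all genes.

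Fibroblast, monocyte and macrophage genes were mostly higher in the masses too. Csf1 spanned only 6.60 to 6.79 among the masses. Mass 510 had the highest Csf1 of the masses and the lowest mean of both lists. The mean of 8 fibroblast genes was 8.60, 8.84 and 7.23 in masses 412, 426 and 510, against 7.39, 6.63 and 6.56 in control forestomachs 214, 216 and 217. The mean of 15 monocyte and macrophage genes was 6.91, 6.41 and 6.12 in the masses, against 5.71, 5.76 and 5.78 in control forestomachs. In the masses, 8 of 8 tested fibroblast genes and 11 of 13 tested monocyte and macrophage genes were above control forestomach. The median differences were 1.52 and 0.77. None of either list was called, against 10.7% of all genes tested. Control esophagus 214, where Csf1 was highest, had the highest mean of both lists, 10.41 and 7.30. Flox/flox esophagus 193 was the next highest for Csf1 and had a fibroblast mean of 6.63, within the range of controls 216 (6.64) and 217 (6.49) and of array 313 (6.42). Its monocyte and macrophage mean was 6.10, above array 313 (5.52) and controls 216 (5.35) and 217 (5.28). Flox/flox esophagus 335, which followed array 193 for Csf1 at 7.0, had means of 9.61 and 7.02. For both lists these were the highest after control esophagus 214. The part of these cells in the Csf1 levels was not tested. In these bulk samples, more cells of a type and more RNA per cell cannot be told apart.

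**Figure D3:**
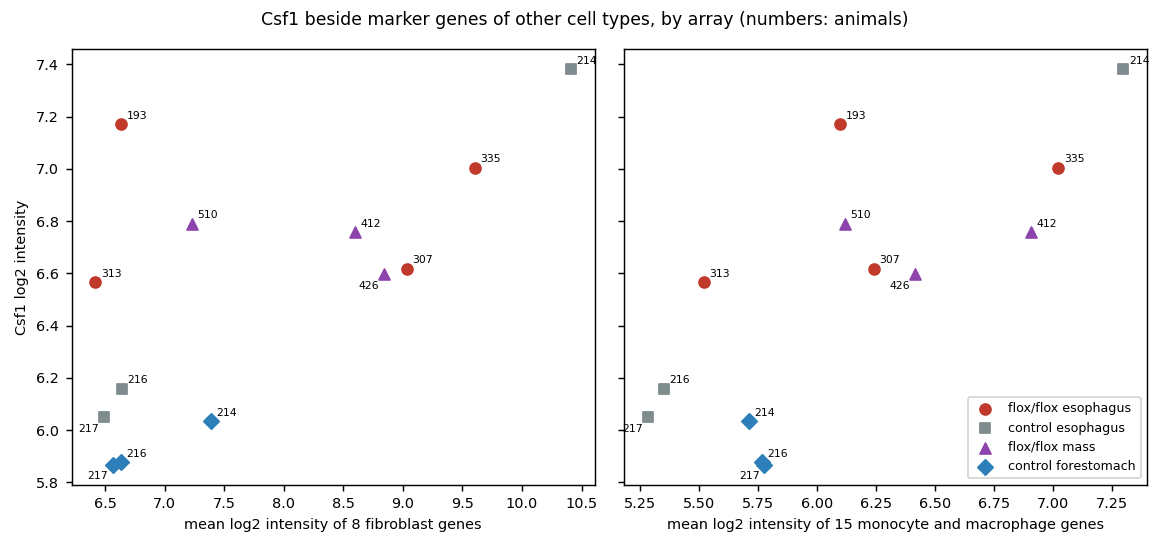
Csf1 log2 intensity on each array (vertical axis) against the mean log2 intensity of 8 fibroblast genes (left) and of 15 monocyte and macrophage genes (right), with animals numbered. Control esophagus 214 is highest on all 3 measures, and flox/flox esophagus 193 has a Csf1 level of 7.17 with a fibroblast mean of 6.63 and a monocyte and macrophage mean of 6.10.

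Csf2, which encodes GM-CSF, a growth factor of granulocytes and macrophages, was not above background on any array. It read 4.12, 4.61 and 4.59 in the masses, against 4.34, 4.55 and 4.52 in control forestomachs. In the esophagus it read 4.24, 4.21, 4.28 and 4.29 in flox/flox animals, against 3.80, 4.31 and 3.91 in controls. Both pairs of groups overlapped, and the untested differences were -0.03 and 0.25. Csf3, which encodes G-CSF, the factor that drives neutrophil production, was likewise at background on all 13 arrays. It read 5.37, 5.26 and 5.55 in the masses, against 5.24, 5.41 and 5.42 in control forestomachs, with a log2 difference of 0.04 (limma adjusted p = 0.885). Csf3 read 5.25, 5.14, 5.34 and 4.96 in flox/flox esophagus, against 5.08, 5.28 and 5.30 in control esophagus, with a difference of -0.05 (limma adjusted p = 0.998). For Csf2 and Csf3 no genotype difference was detectable at these levels.

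Ccl2, the chief attractant of monocytes through Ccr2, stayed close to background. It read 5.25, 5.54 and 5.54 in masses 412, 426 and 510, against 5.39, 5.79 and 5.38 in control forestomachs. In the esophagus Ccl2 read 4.92, 5.12, 5.27 and 5.54 in flox/flox animals, against 5.21, 4.96 and 5.02 in controls. The arrays above background were mass 426, control forestomach 216 and flox/flox esophagus 335, and the groups overlapped in both tissues. The differences were -0.08 (SE 0.17, 95% interval -0.44 to 0.28; limma adjusted p = 0.828) in the masses and 0.15 (limma adjusted p = 0.967) in the esophagus.

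Tnf, which encodes a cytokine of activated macrophages that induces many chemokines, read 5.47, 5.32 and 5.82 in the masses, against 5.14, 5.47 and 5.69 in control forestomachs. In the esophagus it read 5.47, 5.25, 5.64 and 5.41 in flox/flox animals, against 5.01, 5.50 and 5.27 in controls. The groups overlapped in both tissues, and Tnf was above background only in mass 412, control forestomach 217 and flox/flox esophagus 313. Its log2 difference was 0.10 (SE 0.18, 95% interval -0.29 to 0.49; limma adjusted p = 0.797) in the masses and 0.18 (SE 0.17, 95% interval -0.18 to 0.55; limma adjusted p = 0.946) in the esophagus.

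Cxcl1, Cxcl2 and Cxcl5 encode neutrophil attractants that act through Cxcr2, and their genes lie together on chromosome 5. Cxcl1 was above background everywhere and read 6.61, 6.68 and 7.30 in masses 412, 426 and 510, against 6.45, 6.70 and 6.40 in control forestomachs. Mass 510 was the highest of all 13 arrays, while the other masses lay within the control range. Array 510 also had the highest background, 5.83. The Cxcl1 difference was 0.35 (SE 0.19, 95% interval -0.07 to 0.78; limma adjusted p = 0.298). In the esophagus Cxcl1 read 6.33, 6.23, 6.63 and 6.48 in flox/flox animals, against 6.14, 6.65 and 6.26 in controls, and the groups overlapped, with a difference of 0.07 (limma adjusted p = 0.998).

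Cxcl5 had the widest range of the 10 genes, 4.30 on the log2 scale. It read 7.99, 5.39 and 4.57 in masses 412, 426 and 510, against 3.95, 4.19 and 4.04 in control forestomachs. All 3 masses lay above the controls, as did 10.3% of all genes tested. Only mass 412 was above its array's background, by 2.59, or 6.01-fold. The order of masses 426 and 510 and the controls is therefore one of values at background. In the esophagus Cxcl5 read 4.22, 3.69, 3.73 and 3.89 in flox/flox animals and 3.95, 3.89 and 3.96 in controls, all at background, with an untested difference of -0.05. The difference of the group means in the masses was 1.92, against controls at background, and was not tested, since the gene lay below the filter. With no filter it had an SE of 0.61 and a limma adjusted p of 0.0789. Without mass 412, every Cxcl5 value left in the masses and control forestomachs was at background, so no size can be given for the difference there, and the values above rest on 1 array that measured the gene.

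Cxcl2 read 5.38, 4.24 and 4.45 in the masses, against 3.97, 4.37 and 4.44 in control forestomachs. Mass 412 was again the highest of the 13 arrays, yet just under its background of 5.40. In the esophagus Cxcl2 read 4.12, 4.39, 4.14 and 4.36 in flox/flox animals, against 4.10, 4.25 and 3.99 in controls. The groups overlapped in both tissues, and the untested differences were 0.43 in the masses and 0.14 in the esophagus.

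The tested genes whose pattern over the 13 arrays was most like that of Cxcl5 were Aldh1a3, Tmem171 and Mmp13. Their mean-centred log2 levels differed from those of Cxcl5 by a root mean square of 0.37, 0.39 and 0.39, where Cxcl5 itself had an SD of 1.12. All 3 were highest in mass 412, where Aldh1a3, a retinaldehyde dehydrogenase, read 11.03, the membrane protein gene Tmem171 read 8.78 and the collagenase gene Mmp13 read 8.75. Cxcl5 was above background only in mass 412, so the likeness rests mostly on that array. Mmp13 was above background only there and in control forestomach 217.

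Ccl20, the ligand of Ccr6 on dendritic cells and lymphocytes, was just above background on every array. It read 5.59, 6.18 and 5.93 in the masses, against 5.81, 6.08 and 5.96 in control forestomachs. In the esophagus it read 5.56, 5.97, 5.67 and 5.66 in flox/flox animals, against 5.35, 5.73 and 5.92 in controls. The groups overlapped, and the differences were -0.05 (limma adjusted p = 0.907) in the masses and 0.05 (limma adjusted p = 0.998) in the esophagus.

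Cxcl14, a chemokine that epithelia make in the resting state, read 6.56, 6.36 and 5.87 in masses 412, 426 and 510, against 5.67, 6.02 and 5.84 in control forestomachs. Masses 412 and 426 lay above every control and mass 510 lay within their range. The difference was 0.42 (SE 0.17, 95% interval 0.05 to 0.80), with a limma adjusted p of 0.150. Without mass 510 the Cxcl14 difference was 0.62 and the adjusted p 0.0167, and without mass 412 they were 0.27 and 0.354. In the esophagus Cxcl14 read 5.81, 6.04, 5.63 and 5.99 in flox/flox animals, against 5.68, 5.56 and 5.60 in controls. Of the 4 flox/flox arrays, 3 lay above all controls and array 313 lay among them, and the difference was 0.25 (SE 0.16, 95% interval -0.10 to 0.60; limma adjusted p = 0.854).

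Between the control tissues of the same 3 animals, 0 of 7 ligand genes were called, where 1059 genes or 6.67% were. At an unadjusted p under 0.05 the count was 1 of 7 (Ccl2), against 21.6% of all genes. Csf1 read 6.03, 5.88 and 5.87 in control forestomachs 214, 216 and 217, against 7.38, 6.16 and 6.05 in control esophagus, with all forestomachs lower and a difference of -0.60 (SE 0.29, 95% interval -1.24 to 0.03; limma adjusted p = 0.257). Ccl2 read 5.39, 5.79 and 5.38 in control forestomachs, against 5.21, 4.96 and 5.02 in control esophagus, with all forestomachs higher and a difference of 0.46 (SE 0.17, 95% interval 0.10 to 0.82; limma adjusted p = 0.131). Groups without overlap were thus seen for 2 of the 7 genes and for 37.3% of all genes. In a fit that took the animal as a random block, the Ccl2 difference had an adjusted p of 0.0404, and as a fixed block over the control arrays alone 0.0983. Ccl2 was above background on only 1 of these 6 arrays. Csf2 was untested and at background throughout, with forestomach values 0.47 higher and no overlap. The tissue differences of Tnf (0.18), Cxcl1 (0.17), Ccl20 (0.28), Cxcl14 (0.23) and Csf3 (0.13) had limma adjusted p-values of 0.395 to 0.670.

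The 11 genes listed as receptors of these ligands, or as a paralog of one, were all on the array and 9 were tested. Of these, 0 were called in either genotype comparison, against 10.7% of all genes in the masses and 0.0126% in the esophagus. In the masses 6 of the 9 were above 0, with a median of 0.39. All masses lay above all control forestomachs for 10.3% of all genes tested. Csf1r, the receptor of Csf1 on macrophages, read 8.01, 7.72 and 7.69 in the masses, against 6.73, 6.39 and 7.01 in control forestomachs. The groups did not overlap, and the Csf1r difference was 1.09 (SE 0.53, limma adjusted p = 0.234), with an adjusted p of 0.0381 when the forestomach arrays were fitted alone. In the esophagus Csf1r read 8.37, 7.19, 7.06 and 8.53 in flox/flox animals, against 8.30, 5.94 and 6.66 in controls, with overlap and a difference of 0.82 (limma adjusted p = 0.831). Csf1r, like Csf1, was high in control esophagus 214.

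The shared signalling chain of the receptor for GM-CSF is encoded by Csf2rb, and Csf2rb2 is its close mouse paralog, so their probe sets may share signal. Csf2rb2 read 7.85, 6.86 and 6.73 in the masses, against 6.22, 6.18 and 6.14 in control forestomachs, without overlap, and its difference was 0.97 (SE 0.29, limma adjusted p = 0.0578). Csf2rb differed by 0.93 (limma adjusted p = 0.140), also without overlap, and the binding chain Csf2ra by 0.39 (limma adjusted p = 0.218). Higher masses without overlap were seen for 10.3% of all genes tested. In the esophagus Csf2rb2, Csf2rb and Csf2ra differed by 0.47, 0.66 and 0.38, with limma adjusted p-values of 0.714 to 0.815. Their levels stood above background on all 13 arrays, while Csf2 itself did not. The Csf2rb2 adjusted p was 0.0303 without mass 510, 0.0413 without flox/flox esophagus 335 and 0.0492 without the 3 esophagus arrays named above.

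Tnfrsf1b, the inducible TNF receptor found mainly on immune and endothelial cells, read 6.76, 7.35 and 6.09 in masses 412, 426 and 510, against 5.64, 5.68 and 5.82 in control forestomachs. All masses lay above all controls, as for 10.3% of all genes tested. The Tnfrsf1b difference was 1.02 (SE 0.32, limma adjusted p = 0.0647). Its adjusted p was 0.0148 without mass 510 and 0.0455 without flox/flox esophagus 313. Tnfrsf1a, the widely expressed TNF receptor, was high in every sample, between 9.96 and 10.39, and differed by -0.10 in the masses (limma adjusted p = 0.636) and by 0.03 in the esophagus. Tnfrsf1b differed by 0.28 in the esophagus.

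Csf3r, the neutrophil receptor for G-CSF, was at background on all 13 arrays. Cxcr2 was above background on all 13 and read 7.69, 6.91 and 7.91 in the masses, against 7.57, 7.73 and 8.21 in control forestomachs, with overlap and a difference of -0.34 (limma adjusted p = 0.730). In the esophagus Cxcr2 read 6.51, 5.55, 7.98 and 6.20 in flox/flox animals, against 7.31, 7.45 and 7.66 in controls. There, 3 of the 4 flox/flox arrays lay below all controls and array 313 above them, and the difference was -0.91 (limma adjusted p = 0.745). Cxcr1 differed by -0.10 in the masses (limma adjusted p = 0.690) and 0.09 in the esophagus. Ccr2, the receptor of Ccl2, and Ccr6, that of Ccl20, were below the filter. Ccr2 was 0.58 higher in the masses without overlap, as for 10.3% of all genes tested, but at background in all masses. The scavenging receptors Ackr1 and Ackr3 bind chemokines without driving migration. They differed by 0.67 and 0.33 in the masses (limma adjusted p = 0.241 and 0.355). In the genotype comparisons 0 of 4 tested scavengers were called, against 10.7% of all genes in the masses and 0.0126% in the esophagus.

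Neutrophil genes gave 2 calls of 10 tested in the masses, where 10.7% of all genes were called, and 9 of the 10 were above 0, with a median of 0.48. Lcn2, an iron-scavenging protein of neutrophil granules that inflamed epithelium also makes, read 7.80, 7.46 and 9.39 in masses 412, 426 and 510, against 5.04, 5.44 and 5.29 in control forestomachs. It rose by 2.96 (SE 0.67, limma adjusted p = 0.0174), a call lost without control forestomach 214, 216 or 217 (adjusted p 0.0674, 0.0510 and 0.0570). Mmp9, a gelatinase of neutrophils and other cells, rose by 0.76 (SE 0.21, limma adjusted p = 0.0381), and that call was lost in 7 of 13 omissions of 1 array (flox/flox esophagus 307 or 313, control esophagus 217, mass 412 or 426, control forestomach 214 or 216; adjusted p 0.0511 to 0.153). In the esophagus Lcn2 read 8.30, 5.32, 5.47 and 6.12 in flox/flox animals, against 5.16, 5.35 and 5.39 in controls, high in animal 193 and not called. Of the 14 neutrophil genes on the array, 7, 6 and 3 were above background in masses 412, 426 and 510, against 3, 2 and 3 in control forestomachs. Ly6g, Ngp, Elane, Mmp8, Trem1 and Csf3r were not above background on any array. The mean of all 14 was 6.29, 5.84 and 5.67 in the masses, against 4.97, 5.18 and 5.33 in control forestomachs. It was highest in mass 412, where Cxcl5 was highest, and its part in the Cxcl5 level was not tested.

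Among 11 tested other CC chemokines, 0 were called higher and 1 lower in the masses, with a median of 0.14. Of all genes tested, 10.7% were called there. Ccl6, a monocyte attractant of rodents, read 7.92, 8.06 and 8.31 in the masses, against 9.09, 9.60 and 9.49 in control forestomachs. It fell by 1.30 (SE 0.36, limma adjusted p = 0.0422), and with 1 array left out the call was kept only without mass 510, flox/flox esophagus 193 or 335 or control esophagus 214. In the other 9 omissions of 1 array the Ccl6 adjusted p was 0.0504 to 0.133, and it was 0.0525 with the animal as a random block and 0.0601 with quantile normalization. Ccl11, an eosinophil attractant, was chosen after its values were seen. It read 10.78, 7.89 and 8.33 in the masses, against 6.73, 5.98 and 6.01 in control forestomachs. All masses lay above all controls, as for 10.3% of all genes tested. The Ccl11 difference was 2.76 (SE 1.09, limma adjusted p = 0.138). None of 10 tested other CXC, CX3C and XC ligands was called, against 10.7% of all genes, with a median of 0.38. Cxcl16, a transmembrane chemokine of macrophages and epithelium, read 8.69, 7.11 and 6.97 in the masses, against 6.11, 6.41 and 6.44 in control forestomachs, without overlap (difference 1.27, SE 0.39, limma adjusted p = 0.0571). Cxcl9, an interferon-induced T-cell attractant, differed by 0.38 (limma adjusted p = 0.133).

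Cytokines that induce the ligands gave 0 calls of 9 tested in the masses, against 10.7% of all genes called, with a median of 0.11. Il1a, an alarm cytokine stored in keratinocytes, read 6.78, 5.72 and 6.99 in the masses, against 8.04, 8.19 and 7.79 in control forestomachs. The Il1a difference was -1.51 (SE 0.55, limma adjusted p = 0.107). Lif, a cytokine of the IL-6 family, differed by 0.30 (limma adjusted p = 0.121).

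A list of NF-kappaB targets and feedback genes gave 3 calls higher and 1 lower of 13 tested in the masses (10.7% of all genes were called there). Its median was 0.10 in the masses, and 0 of 13 were called in the esophagus. Bcl3, a nuclear IkappaB protein, read 8.50, 8.21 and 8.49 in masses 412, 426 and 510, against 7.25, 6.88 and 7.08 in control forestomachs. It rose by 1.33 (SE 0.14, limma adjusted p = 0.000552), a call kept in all 13 omissions of 1 array. The genotype difference of Bcl3 in the esophagus was 0.34 (limma adjusted p = 0.614), and the difference between the genotype changes was 0.99 (SE 0.19, limma adjusted p = 0.0588). Bcl3 was also lower in control forestomach than in control esophagus, by -0.58 (limma adjusted p = 0.0276), and both results use the same control forestomachs. That tissue call was lost without control esophagus 214 or 217 or control forestomach 216 or 217 (adjusted p 0.0739 to 0.128), and without the 3 esophagus arrays high in muscle and fibroblast genes (0.0992).

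Tnfaip3, the ubiquitin editor A20, read 7.77, 6.95 and 6.89 in the masses, against 6.42, 6.66 and 6.24 in control forestomachs, and rose by 0.76 (SE 0.22, limma adjusted p = 0.0469). Birc3, an inhibitor of apoptosis in TNF receptor complexes, rose by 0.88 (SE 0.26, limma adjusted p = 0.0485). Each of these calls was lost in 10 of 13 omissions of 1 array, with adjusted p up to 0.163 for Tnfaip3 and 0.155 for Birc3. Both were also lost with no filter on low values (0.0545 for Tnfaip3 and 0.0561 for Birc3) and with median centring (0.0625 for Tnfaip3 and 0.0566 for Birc3), and Birc3 with a random block for the animal (0.0530). The Tnfaip3 call was kept without flox/flox esophagus 193 or mass 426 or 510, and the Birc3 call without flox/flox esophagus 193 or 307 or mass 426. Nfkbia, the inhibitor IkappaB-alpha, moved the other way and read 9.70, 9.35 and 10.04 in the masses, against 10.52, 10.85 and 10.11 in control forestomachs. It fell by 0.79 (SE 0.19, limma adjusted p = 0.0219), a call lost without mass 412 or 426 or control forestomach 214 or 216 (adjusted p 0.0536 to 0.0880).

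Of 8 tested regulators of mRNA decay, 0 were called higher and 2 lower in the masses, against 10.7% of all genes called, with a median of -0.001. Zfp36 read 8.92, 8.59 and 8.56 in the masses, against 9.89, 9.83 and 8.95 in control forestomachs, and fell by 0.87 (SE 0.24, limma adjusted p = 0.0373). Its relative Zfp36l1 fell by 0.42 (SE 0.12, limma adjusted p = 0.0466). The Zfp36 call was lost without control esophagus 216 or 217, mass 426 or 510, or control forestomach 214 or 216 (adjusted p 0.0503 to 0.150), with the animal as a random block (0.0605) and with quantile normalization (0.0528). The Zfp36l1 call was kept only without mass 510, control esophagus 214 or 216 or control forestomach 216, and its adjusted p was 0.0595 to 0.180 in the other 9 omissions of 1 array. It was 0.0545 with no filter, 0.0764 with quantile normalization and 0.0646 with median centring. Both genes were higher in control forestomach than in control esophagus, Zfp36 by 1.04 (limma adjusted p = 0.0215) and Zfp36l1 by 0.48 (limma adjusted p = 0.0359). The tissue call of Zfp36 was lost without control animal 214 or 216 in either tissue (adjusted p 0.0569 to 0.103) with the animal as a fixed block (0.0647) and without the 3 esophagus arrays high in muscle and fibroblast genes (0.104). That of Zfp36l1 was lost without control esophagus 216 or 217, control forestomach 214 or 217, or flox/flox esophagus 193, 313 or 335 (adjusted p 0.0506 to 0.135), without those 3 arrays (0.0750) and with median centring (0.0795). In the esophagus the genotype differences of Zfp36 and Zfp36l1 were 0.03 and -0.12, neither called.

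**Figure D4:**
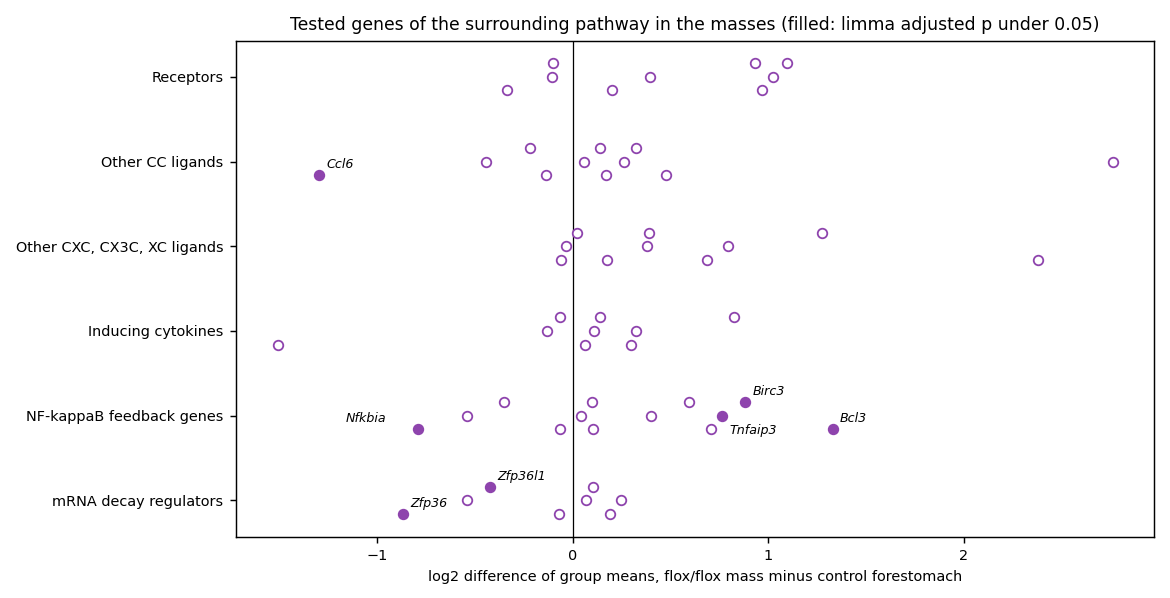
Log2 difference of group means, flox/flox forestomach mass minus control forestomach, for tested receptors, other ligands, inducing cytokines, NF-kappaB feedback genes and mRNA decay regulators (rows). Each circle is 1 gene, filled where the limma adjusted p is under 0.05. The NF-kappaB row holds targets and feedback genes alike. Bcl3 (1.33), Birc3 (0.88) and Tnfaip3 (0.76) lie to the right of 0, while Ccl6 (-1.30), Zfp36 (-0.87), Nfkbia (-0.79) and Zfp36l1 (-0.42) lie to the left.

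Over all 123 tested genes of the surrounding lists, 6 were called higher and 6 lower in the masses, or 9.76%, against 10.7% of all genes tested. In the esophagus 0 were called, and 10 of the 123 had an unadjusted p under 0.05, against 6.98% of all genes. With the forestomach arrays fitted alone, the calls of Birc3, Tnfaip3, Nfkbia, Zfp36, Zfp36l1, Mmp9, Krt4 and Ctnnd1 were lost (limma adjusted p 0.0945 to 0.153), and with array weights those of Birc3, Tnfaip3, Nfkbia, Zfp36, Zfp36l1, Mmp9, Ccl6 and Ctnnd1 (0.0510 to 0.396). Without the 3 esophagus arrays high in muscle and fibroblast genes, Birc3, Tnfaip3, Nfkbia, Zfp36l1 and Mmp9 lost theirs (0.0503 to 0.0740). The lists' other calls in the masses were epithelial or the target itself. Dsg3, a desmosomal cadherin, rose by 1.37 (limma adjusted p = 0.00258), and Krt4, a keratin of differentiated squamous cells, fell by 0.56 (limma adjusted p = 0.0178), a call lost without each of the control forestomachs 214, 216 and 217 (adjusted p 0.0588 to 0.0612). Of endothelial genes 8 of 8 were above control forestomach, with a median of 1.37 and none called, and Cdh5 of vessel junctions differed by 1.70 (limma adjusted p = 0.110). T and NK cell genes gave 0 calls of 6, with a median of 0.22, and skeletal muscle genes 0 of 10, with a median of 0.10.

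Between the control tissues 3 of the 123 genes were called higher in forestomach and 2 lower, or 4.07%, against 6.67% of all genes tested. The higher ones were Zfp36, Zfp36l1 and Cd14, and the lower ones Ackr3 and Bcl3. Cd14, a co-receptor for bacterial lipopolysaccharide on monocytes, was 0.61 higher (limma adjusted p = 0.0328), a call lost without control esophagus 216 or 217 or any control forestomach (214, 216 or 217; adjusted p 0.0685 to 0.129), and with quantile normalization (0.0525) or median centring (0.0548). The scavenger Ackr3 read 5.24, 4.87 and 5.51 in control forestomachs, against 6.59, 6.16 and 5.90 in control esophagus. It was lower by -1.01 (limma adjusted p = 0.0115), a call lost without control forestomach 216 (adjusted p 0.0596).

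Ctnnd1, the targeted gene, read 9.66, 9.91 and 9.51 in the masses, against 10.40, 10.14 and 10.23 in control forestomachs, and fell by 0.56 (limma adjusted p = 0.0145), a call lost without control forestomach 214 (adjusted p 0.0681). It read 10.13, 9.95, 10.08 and 10.04 in flox/flox esophagus, against 10.21, 10.33 and 10.50 in control esophagus, all lower and not called (difference -0.29, limma adjusted p = 0.637). Where its probes lie relative to the floxed exons was not examined here. All 8 squamous epithelium genes were above background on every array, with means of 12.13 to 12.53. Skeletal muscle genes averaged 8.43 and 10.14 in flox/flox esophagus 307 and 335 and 8.73 in control esophagus 214, against 5.63 to 6.01 on the other 10 arrays.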

How the data were processed

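The deposited table holds intensity values on a linear scale, which the authors made with GCRMA, per the submitters' processing notes. The version of GCRMA is not given in the sources used here. The table lists 34729 probe sets, of which 21633 are paired with 1 gene symbol. A gene with several probe sets was read by the one with the highest mean. Values under 1 were set to 1 and put on the log2 scale. Genes above log2 5 on at least 3 arrays were tested, 15875 of 19934. Group means of the 13 arrays in 4 groups were fitted with limma 3.58.1 in R 4.3.3 (lmFit and eBayes), with 9 residual degrees of freedom, Benjamini-Hochberg adjustment over all genes tested and a call at an adjusted p under 0.05. All adjusted p-values in the text are from such fits, and differences are flox/flox minus control or control forestomach minus control esophagus. The script was tested on simulated data. Array medians were 65.3 to 72.4 and maxima 20585 to 21860 in intensity, and precision is limited by how many arrays there are.

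The control tissues come from the same animals, whose deviations from the group means correlated at 0.401, 0.398 and 0.315 (animals 214, 216 and 217), against -0.425 to 0.129 between different animals. The main fit has no block, and the animal as a block is an alternative. Others were filters, normalization, a pseudocount, array weights and omitted arrays. The 10 ligand genes and all lists were chosen with earlier results of these data known. Named genes are the 10 ligand genes, all genes listed as their receptors and Ctnnd1. From each list up to 4 called genes are named by adjusted p or, with none called, up to 2 by unadjusted p. The 3 genes most like the ligand gene with the widest range are named too. Of 155 listed companion genes 146 were on the array and 123 were tested. Promoters were read from a RefSeq table (GRCm38.p6) with Python 3.11.15; Csf3, Ccl2 and Cxcl5 are not in it.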

Additional observations from a re-analysis of the deposited data

Results flagged for a closer look

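Tmem171, named for its likeness to Cxcl5, read 6.42 in flox/flox esophagus 193, against 5.40 to 5.56 in the other 3 flox/flox esophagus arrays. This array lay farther from its group than Dixon's 95% critical value for 4 samples allows, which chance alone gives in about 1 of 20 groups. Cxcl5 itself was also highest of its group in animal 193, at 4.22, and at background there.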

How the results depend on the processing

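The counts of genes called moved more than the ligand genes did. In the esophagus (2 genes) the count was 0 with the esophagus arrays alone, 0 with the random replicate block, 1 without the 3 esophagus arrays high in muscle and fibroblast genes (chosen after seeing the data) and 0 to 7 with 1 array left out. In the masses (1700) it was 1102 with array weights, 452 with the forestomach arrays alone and 747 to 2238 with 1 array left out. There 1 ligand gene, Csf1, was called with the forestomach arrays alone or without the 3 esophagus arrays. With 1 array left out, 0 to 1 ligand genes were called, Csf1 without control esophagus 214 and Cxcl14 without mass 510. For the difference of the genotype changes (22) it was 101 with a filter at log2 7, 49 with quantile normalization, 79 with log2(value + 16), 60 with array weights, 56 with trend and robust settings, 145 with the random replicate block, 5 without the 3 arrays and 10 to 373 with 1 array left out. For the control tissues (1059) it was 3802 with array weights, 2670 with the random and 2348 with the fixed replicate block, 496 without the 3 arrays and 538 to 1564 with 1 array left out. Ccl2 was the 1 ligand gene called there, with array weights (adjusted p 0.0262) or the random replicate block (0.0404). Pairing by animal changed no other ligand gene's call.

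Differences near 0 changed sign. Csf3 was 0.0047 in the esophagus without the 3 arrays and -0.011 in the masses with array weights. Ccl20 was -0.017 in the esophagus with array weights and -0.21 without the 3 arrays, and its difference of the genotype changes was then 0.16. Tnf in the masses was -0.049 and Csf3r in the esophagus 0.012 with array weights. With 1 array left out, esophagus ranges were -0.12 to 0.021 for Csf3, -0.036 to 0.22 for Cxcl1, -0.11 to 0.18 for Ccl20, -0.17 to 0.040 for Csf3r, -0.020 to 0.086 for Tnfrsf1a and -0.021 to 0.17 for Cxcr1. In the masses they were -0.037 to 0.11 for Csf3, -0.15 to 0.053 for Ccl2, -0.047 to 0.23 for Tnf, -0.19 to 0.11 for Ccl20 and -0.19 to 0.00063 for Tnfrsf1a. For the difference of the genotype changes they were -0.23 to 0.046 for Tnf and -0.24 to 0.061 for Ccl20. The cause of these moves was not tested. With log2 5 as background, 5 ligand genes were above it on all 13 arrays, 4 on some and 1 on none.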

Other observations

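Mass 412, which had the highest Cxcl5 and Cxcl2 levels, also held the highest values of several other inflammatory ligands. These genes were picked after their values were seen, and none of those tested was called. Ppbp, which encodes a platelet-derived ligand of Cxcr2, read 9.86, 5.10 and 4.19 in masses 412, 426 and 510, against 3.64, 3.82 and 4.56 in control forestomachs. Cxcl3, a further Cxcr2 ligand that was below the filter, read 6.44, 3.70 and 4.02 in the masses, against 3.80, 3.97 and 3.71 in control forestomachs. Only mass 412 was high for both. The untested monocyte attractant Ccl8 read 8.02, 4.19 and 4.85 in the masses, against 3.93, 4.13 and 3.74 in control forestomachs, and Il1b, an inflammasome-processed cytokine, read 7.09, 5.17 and 5.84, against 4.75, 5.43 and 5.45. Mass 412 stood highest of the 13 arrays for each of these 4 genes.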
